A study of Mus musculus with 13 samples.

Results

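Id1, Id2, Id3, Id4, Smad6, Smad7, Hamp, Hamp2, Atoh8 and Bmp6 are 10 of the 53392 genes in the count table of this liver study, and comprise Id genes, hepcidin genes and other targets or ligands of BMP signalling. They were chosen by name for their place in the pathway, and Id2 was picked because its counts were lower in both groups of mice given doxycycline (Dox) than in the mice without it. All 10 had enough counts to be tested.

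Bone morphogenetic proteins (BMPs) are secreted ligands that bind paired serine/threonine kinase receptors, which phosphorylate Smad1, Smad5 and Smad9 so that these enter the nucleus with Smad4. In the liver, sinusoidal endothelial cells secrete BMP ligands in response to iron, and hepatocytes answer with transcription of hepcidin, the peptide hormone that lowers iron export into the blood. The same Smads turn on Id1, Atoh8, Smad6 and Smad7, of which the inhibitory Smads limit the signal.

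RNA from the livers of 13 female mice, 8 to 14 weeks old, was sequenced, all of them littermates with 2 copies each of an Albumin-Cre and a Cre-dependent rtTA allele (Rosa26-loxP-stop-loxP-rtTA). ASAH+ marks mice that also have TRE-ASAH1, from which Dox induces acid ceramidase in hepatocytes, and ASAH- marks mice that lack it. Every mouse received the Lieber-DeCarli liquid diet with 28% of calories from ethanol for 4 weeks, and no group on a diet without alcohol is in the table. The groups were 4 ASAH- mice with Dox at 200 mg/l in the diet (ASAH- Etoh-Dox), 5 ASAH+ mice with the same Dox (ASAH+ Etoh-Dox) and 4 ASAH+ mice without it (ASAH+ Etoh), each mouse numbered by its replicate. Of the 3 comparisons, that of the Dox groups varies the genotype and with it induction of the transgene. That within ASAH+ mice varies Dox and with it the same induction, so the 2 cannot be told apart there. ASAH- Etoh-Dox against ASAH+ Etoh varies genotype and Dox, with the transgene induced in neither group.

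On Dox, the sample titles contradict the descriptions and induction labels for the 9 ASAH+ samples, and the groups follow the latter. Asah1, the gene of the acid ceramidase, was read as a check. It averaged 49.3 ± 6.77 CPM (counts scaled to a common library total by TMM; SD, n = 4) in ASAH- Etoh-Dox mice, 12745 ± 2793 CPM (SD, n = 5) in ASAH+ Etoh-Dox mice and 46.5 ± 1.70 CPM (SD, n = 4) in ASAH+ Etoh mice, which matches the descriptions and not the titles. Its log2 fold change was 8.10 (SE 0.205) in ASAH+ mice with against without Dox and 8.01 (SE 0.204) between the Dox groups. The submitters' design text gives 4 mice a group, whereas the labels give 5 ASAH+ Etoh-Dox mice, and all 13 were used. Between 17819486 and 35358711 counts per mouse fell on genes, with group medians of 25581976.5 (ASAH- Etoh-Dox), 26316303 (ASAH+ Etoh-Dox) and 21948031 (ASAH+ Etoh). Id4 had the fewest counts of the members in most mice, 15 to 51, so counting error weighs most on it.

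Hamp and Hamp2, the 2 mouse hepcidin genes, lie on the minus strand of chromosome 7 of GRCm38, at 30942368 to 30944032 and 30922372 to 30924681. Promoter windows from RefSeq, from 250 bases before to 50 bases after the gene start, were found for 8 of the 10 members. On GRCm38.p6 the Hamp window is chr7:30943980-30944279 and the Hamp2 window is chr7:30924132-30924431, both printed 5′ to 3′ on the minus strand. In the annotation that gave the gene positions, the Hamp2 gene spans its whole window. Capitals mark matches to GGCGCC, a motif bound by BMP-activated Smads, matches to TTCNNNGAA, a motif bound by STAT proteins, and in Hamp2 the stretch aligned with GGCGCC of Hamp.
Hamp: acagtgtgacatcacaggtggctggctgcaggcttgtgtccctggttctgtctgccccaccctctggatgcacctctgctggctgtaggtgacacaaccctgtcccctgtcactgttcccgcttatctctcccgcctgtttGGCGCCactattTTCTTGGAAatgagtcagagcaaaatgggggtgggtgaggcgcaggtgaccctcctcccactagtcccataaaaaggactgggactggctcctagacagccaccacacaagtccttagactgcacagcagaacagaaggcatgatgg
Hamp2: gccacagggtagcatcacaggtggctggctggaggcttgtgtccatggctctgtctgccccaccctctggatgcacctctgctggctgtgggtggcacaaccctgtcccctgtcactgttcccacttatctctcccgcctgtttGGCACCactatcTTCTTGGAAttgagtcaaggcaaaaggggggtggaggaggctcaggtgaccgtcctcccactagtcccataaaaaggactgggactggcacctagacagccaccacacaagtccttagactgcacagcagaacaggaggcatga
Over 297 aligned bases of Hamp and Hamp2, 276 were the same (92.9%) and 21 differed. GGCGCC stands at bases 142 to 147 of the Hamp window, counted from 1 at its 5′ end. The aligned stretch of Hamp2 reads GGCACC, which is the substitution G145A in that numbering, at position 4 of the motif. TTCNNNGAA stands at bases 154 to 162 of the Hamp window and at bases 157 to 165 of the Hamp2 window. Both motifs read the same on either strand. Of the 8 member windows, 3 held GGCGCC (Hamp, Id2 and Id4) and 2 held TTCNNNGAA (Hamp and Hamp2). Among all 32851 windows, 11.9% held GGCGCC and 8.3% held TTCNNNGAA. A match describes letters in a window, and binding was not tested.

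Levels of the 10 genes can be compared as CPM per kilobase of exons, averaged over the 13 mice. Hamp (428) and Hamp2 (410.4) had the highest levels per kilobase. Id2 (33.7), Id3 (8.54), Atoh8 (3.77) and Id1 (2.44) followed, and Smad7 (1.68), Smad6 (0.949), Bmp6 (0.588) and Id4 (0.313) were the lowest. By group, Hamp and Hamp2 averaged 356 and 340 in ASAH- Etoh-Dox mice and 743 and 489 in ASAH+ Etoh mice. Their order turned in ASAH+ Etoh-Dox mice, at 234 and 404. In single mice, Hamp ran from 3.28 per kilobase, where Id2 stood at 25.6, to 1298. The spread between mice differed widely among the members. Within groups, the SD of log2 CPM was 2.73 for Hamp and 1.04 for Hamp2, against a median of 0.240 over the 14317 genes tested. Hamp had the 12th largest of these SDs and Hamp2 the 285th. Id2 had the smallest of the members, 0.281, but it was chosen from these same values by its group difference.

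**Figure D1:**
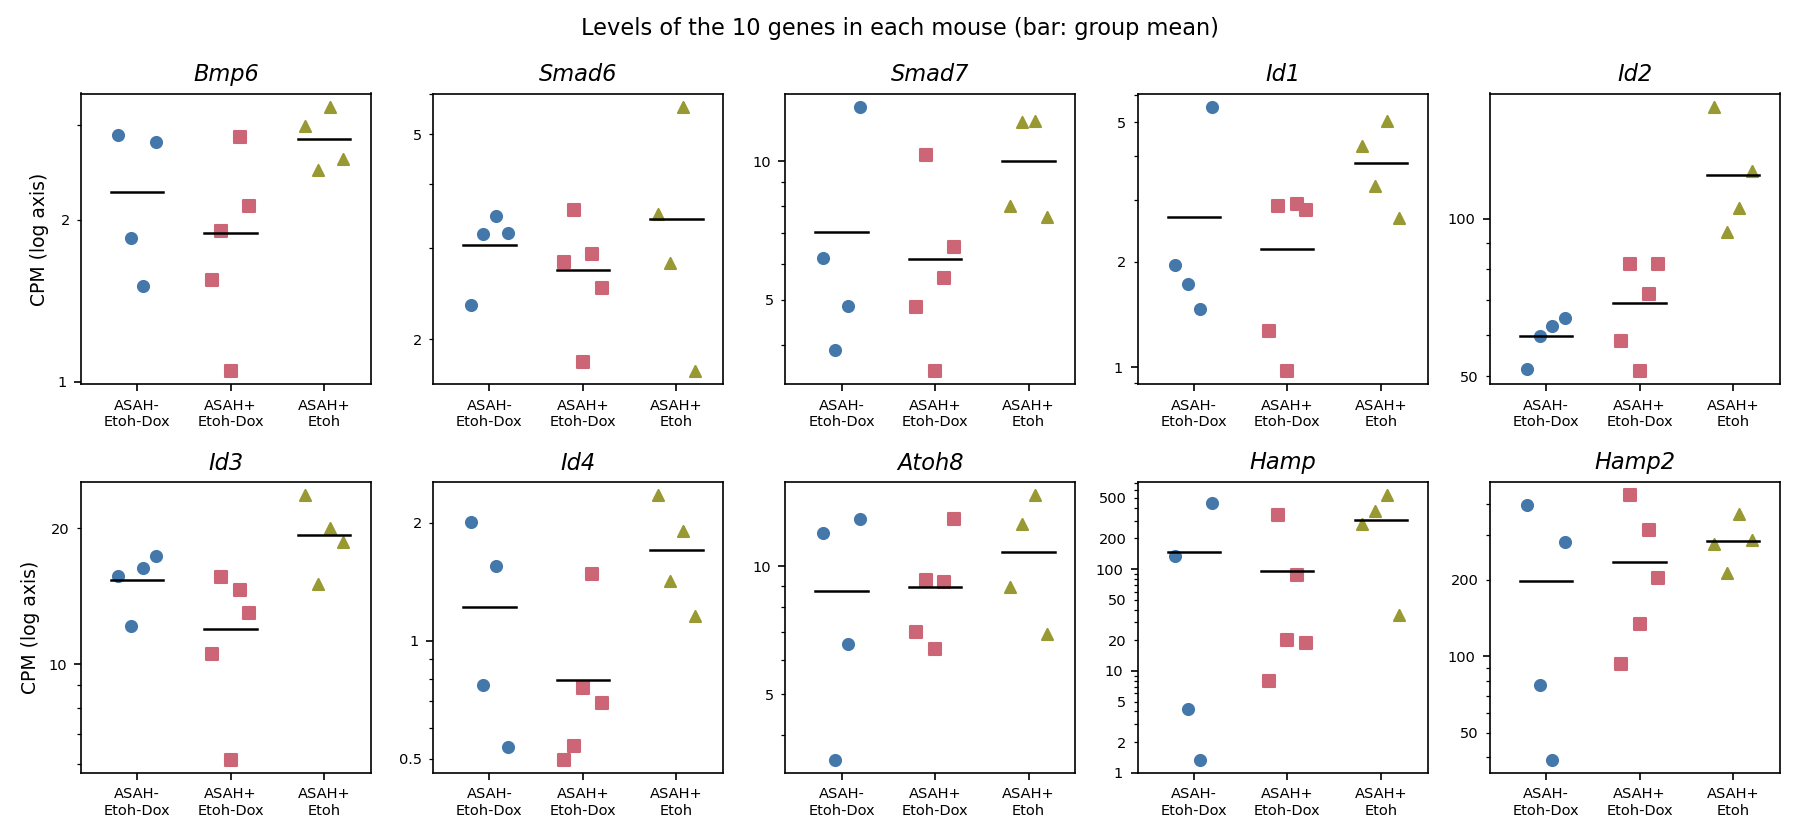
Level of each of the 10 genes in every mouse, in CPM on a log axis, by group (circles ASAH- Etoh-Dox, n = 4; squares ASAH+ Etoh-Dox, n = 5; triangles ASAH+ Etoh, n = 4), with bars at the group means. Hamp spans 1.35 to 532 CPM. Id2, chosen for this pattern, is the one gene whose 4 ASAH+ Etoh mice all lie above both Dox groups.

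None of the 9 members other than Id2 passed the threshold of an adjusted p under 0.1 in any of the 3 comparisons in edgeR's quasi-likelihood test, adjusted after Benjamini and Hochberg over 14317 genes, a threshold that 0.014% of all genes passed in each. Id2 did not pass it between the Dox groups, and no test of Id2 is reported in the other 2 comparisons, by which it was chosen. An adjusted p without a named permutation is of this test. For ASAH+ Etoh-Dox against ASAH- Etoh-Dox mice, 3 members had a log2 fold change above 0 and 7 below, with a median of -0.23 against -0.00 over all genes. No member had an unadjusted p under 0.05 there, against 2.86% of all genes (409). It was 1 member without ASAH- Etoh-Dox mouse 4 (722 genes) or without ASAH+ Etoh-Dox mouse 4 (323 genes), and none without ASAH+ Etoh-Dox mouse 2 (625 genes). For ASAH+ Etoh-Dox against ASAH+ Etoh mice, the fitted log2 fold changes of the 9 members other than Id2 were all below 0, with a median of -0.70 against 0.01 over all genes. Of these 9, 3 (Id3, Id4 and Bmp6) had an unadjusted p under 0.05 there, against 7.29% of all genes. That count was 1 without ASAH+ Etoh mouse 1, 5 without ASAH- Etoh-Dox mouse 4, and 5 in DESeq2, in limma-voom and in edgeR on the groups compared alone. For ASAH- Etoh-Dox against ASAH+ Etoh mice, the 9 other than Id2 were again below 0, with a median of -0.51 against 0.02, and 0 of these 9 had an unadjusted p under 0.05, against 9.18% of all genes. That count was 2 without ASAH- Etoh-Dox mouse 4, and 1 without ASAH+ Etoh-Dox mouse 3, with the Dbp to Arntl covariate and in DESeq2 on the groups compared alone. The comparisons share mice, so their values stand side by side and were not tested against each other. Many pairs of members also varied together across mice, as given below, so the signs of the 9 are not independent.

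Other tools also called 0 members, with Id2 left out where it was chosen. DESeq2 on all 13 mice gave no adjusted p to 7 members in ASAH+ mice with against without Dox and to 4 in ASAH- Etoh-Dox against ASAH+ Etoh mice, so its 0 there rests on the others. On the groups compared alone it gave none to 1 member in the latter. The sign of some members turned when 1 mouse was left out. Smad6 moved to a log2 fold change of 0.00586 against ASAH+ Etoh mice in the ASAH+ comparison, and to 0.16 in the ASAH- one, without ASAH+ Etoh mouse 3.

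**Figure D2:**
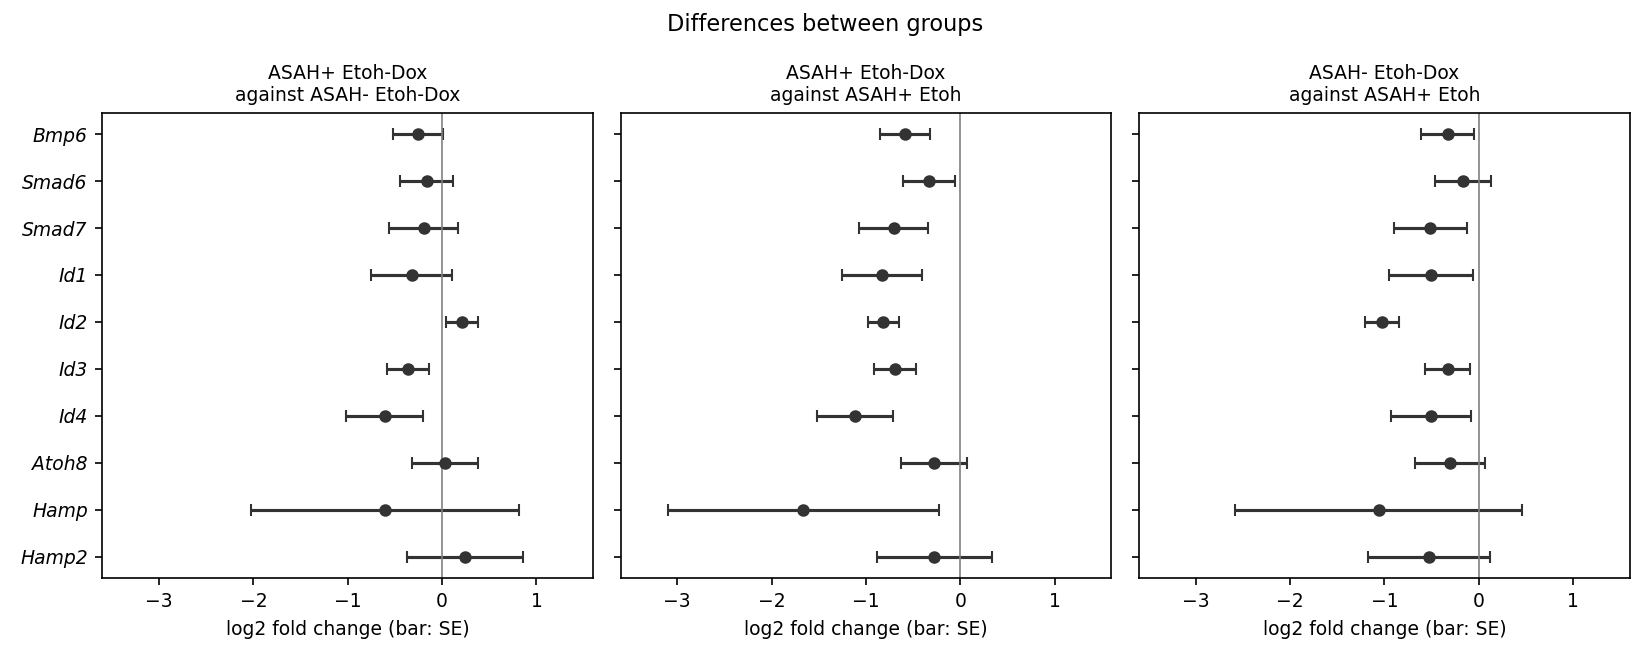
Log2 fold change of each of the 10 genes in the 3 comparisons (points), with its standard error (bars) and a line at 0, from 13 mice. Hamp has the widest bars, with standard errors of 1.42, 1.44 and 1.52.

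Bmp6, the endothelial ligand that relays the iron level to hepatocytes (chromosome 13, 38345107 to 38500302), had 29 to 78 counts per mouse. It stood at 2.87, 1.85, 1.51 and 2.79 CPM in the 4 ASAH- Etoh-Dox mice, at 1.55, 1.91, 1.05, 2.85 and 2.12 CPM in the 5 ASAH+ Etoh-Dox mice, and at 2.99, 2.48, 3.25 and 2.60 CPM in the 4 ASAH+ Etoh mice. The ASAH+ Etoh mice filled a narrow range at the top, which 1 ASAH+ Etoh-Dox mouse and 2 ASAH- Etoh-Dox mice reached. Within ASAH+ mice, the log2 fold change of Bmp6 with against without Dox was -0.59 (SE 0.266), with an adjusted p of 0.669 in edgeR's quasi-likelihood test, adjusted after Benjamini and Hochberg. For ASAH- Etoh-Dox against ASAH+ Etoh mice Bmp6 was at -0.33 (SE 0.280, from -0.48 to -0.18 with 1 mouse left out), and between the Dox groups at -0.26 (SE 0.267, from -0.45 to -0.10 with 1 mouse left out).

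Ligands of the family, Bmp6 among them, made a list of 10 that were all tested, and none passed the threshold. Unadjusted p was under 0.05 for Inhbb between the Dox groups, for Inhbb, Bmp2 and Bmp6 in ASAH+ mice with against without Dox, and for Bmp2 in ASAH- Etoh-Dox against ASAH+ Etoh mice, all with log2 fold changes below 0 (list medians -0.09, 0.01 and 0.11). Bmp2, the endothelial ligand that acts beside Bmp6, stood at 13.3, 9.01, 10.8 and 13.5 CPM in ASAH- Etoh-Dox mice, 9.59, 9.65, 9.03, 13.5 and 11.6 CPM in ASAH+ Etoh-Dox mice and 17.9, 11.5, 14.6 and 16.00 CPM in ASAH+ Etoh mice. The 3 highest values of Bmp2 were of ASAH+ Etoh mice, and the other such mouse lay among the Dox groups. Its log2 fold change was -0.49 (SE 0.160, adjusted p = 0.534) in ASAH+ mice with against without Dox, -0.36 (SE 0.170, adjusted p = 0.541) in ASAH- Etoh-Dox against ASAH+ Etoh mice and -0.13 (SE 0.161) between the Dox groups. Inhbb, which encodes a subunit of activin B, was at -0.74 (SE 0.317, adjusted p = 1.00) between the Dox groups and -1.03 (SE 0.317, adjusted p = 0.512) in ASAH+ mice with against without Dox. Gdf2, which encodes BMP9 and was the most abundant ligand in CPM, was at -0.37 (SE 0.182), 0.02 (SE 0.185) and 0.39 (SE 0.194) in the 3 comparisons.

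Bmp6 and Bmp2 are made in sinusoidal endothelial cells, and 10 markers of these cells were read beside them. Between ASAH+ and ASAH- Etoh-Dox mice, 10 of 10 had a log2 fold change below 0 (median -0.40), 6 of them with an unadjusted p under 0.05. In ASAH+ mice with against without Dox it was 9 of 10 (median -0.44), 7 of them with an unadjusted p under 0.05, and in ASAH- Etoh-Dox against ASAH+ Etoh mice 5 of 10 (median -0.03), none of them. The markers summed to 257, 221, 392 and 282 CPM in ASAH- Etoh-Dox mice, 229.6, 228, 183, 264 and 234 CPM in ASAH+ Etoh-Dox mice and 329.8, 235, 298 and 308 CPM in ASAH+ Etoh mice. Fcgr2b was the most abundant, at -0.60 (SE 0.166, adjusted p = 0.506) in ASAH+ mice with against without Dox, and no marker was at 0 in any mouse. ASAH+ Etoh-Dox mouse 3 had the lowest sum as well as the lowest Bmp6 of all 13 mice. The highest sum, 392 CPM, was of ASAH- Etoh-Dox mouse 3, which had the next lowest Bmp6, 1.51 CPM. In RNA from whole liver, fewer cells of a type and less RNA per cell cannot be told apart, and the part of these markers in the values of Bmp6 was not tested.

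Receptors and co-receptors that pass on Bmp6 and its relatives numbered 12, of which 11 were tested and none passed the threshold (list medians 0.02, -0.10 and 0.01). Bmpr1b had 0 counts in 11 mice and was not tested. Unadjusted p was under 0.05 for Eng, lower between the Dox groups, for Acvr2b, higher, and Bmpr2, lower, in ASAH+ mice with against without Dox, and for Bmpr2, Acvr2a and Neo1, all lower, in ASAH- Etoh-Dox against ASAH+ Etoh mice. Bmpr2, the type II receptor, was at -0.28 (SE 0.0899, adjusted p = 0.534) in ASAH+ mice, with no overlap. No overlap with the Dox group lower was found there for 1.49% of all genes. Bmpr2 was at -0.29 (SE 0.0951, adjusted p = 0.392) in ASAH- Etoh-Dox against ASAH+ Etoh mice, with 1 of 16 pairs of mice the other way. Acvr2a, another type II receptor, was at -0.22 (SE 0.0888, adjusted p = 0.484) in the latter. Hepatocytes also sense iron through Tfr2, Hfe and the co-receptor Hjv. Tfr2, the most abundant of the list in CPM, was at 0.03, 0.04 and 0.01, Hjv at -0.10, 0.17 and 0.27, and Hfe at -0.11, 0.02 and 0.13, none with an unadjusted p under 0.05.

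The 6 Smads that carry the signal were all tested, and none had an unadjusted p under 0.05 in any comparison (list medians 0.10, -0.09 and -0.17). Smad1 was at -0.01, -0.18 and -0.18, Smad5, the most abundant in CPM, at 0.07, -0.09 and -0.16, and Smad4 at 0.16, -0.00 and -0.17. Smad3, which answers to activin and TGF-beta, was at 0.14, -0.11 and -0.25, with no overlap of ASAH- Etoh-Dox and ASAH+ Etoh mice. No overlap of these groups with ASAH- Etoh-Dox lower was found for 2.4% of all genes.

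Smad6, an inhibitory Smad that BMP signalling induces (chromosome 9, 63953076 to 64022059), stood at 2.33, 3.20, 3.47 and 3.22 CPM in ASAH- Etoh-Dox mice, 2.82, 3.56, 1.81, 2.93 and 2.51 CPM in ASAH+ Etoh-Dox mice and 3.50, 2.81, 5.66 and 1.73 CPM in ASAH+ Etoh mice. The highest and the lowest of the 13 values were both of ASAH+ Etoh mice, so this group enclosed the others. The log2 fold change of Smad6 was -0.33 (SE 0.279, from -0.55 to 0.01 with 1 mouse left out) in ASAH+ mice with against without Dox, -0.17 (SE 0.295, from -0.40 to 0.16 with 1 mouse left out) in ASAH- Etoh-Dox against ASAH+ Etoh mice and -0.16 (SE 0.279, from -0.28 to -0.04 with 1 mouse left out) between the Dox groups. The first 2 turned to 0.01 and 0.16 without ASAH+ Etoh mouse 3, and the value in ASAH- Etoh-Dox against ASAH+ Etoh mice was -0.07 in limma-voom and -0.09 with the Dbp to Arntl covariate.

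Smad7, the inhibitory Smad that also acts on TGF-beta signalling and represses hepcidin, stood at 6.16, 3.89, 4.85 and 13.1 CPM in ASAH- Etoh-Dox mice, 4.84, 10.3, 3.50, 5.57 and 6.50 CPM in ASAH+ Etoh-Dox mice and 8.01, 12.2, 12.2 and 7.57 CPM in ASAH+ Etoh mice. All ASAH+ Etoh mice had more than 7 CPM of Smad7, and so did 1 mouse of each Dox group, of which ASAH- Etoh-Dox mouse 4 had the highest value of all. For Smad7 in ASAH+ mice with against without Dox, the log2 fold change was -0.71 (SE 0.365, adjusted p = 0.704), and 2 of 20 pairs of mice went the other way. It was -0.51 (SE 0.386, from -1.02 to -0.31 with 1 mouse left out) in ASAH- Etoh-Dox against ASAH+ Etoh mice and -0.20 (SE 0.368, from -0.47 to 0.31 with 1 mouse left out) between the Dox groups. Without ASAH- Etoh-Dox mouse 4 the last value was 0.31.

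Antagonists and inhibitors outside the members numbered 20, of which Nog, Grem1, Chrdl1, Fstl3 and Erfe had too few counts for the test. None of the 15 others passed the threshold, and unadjusted p was under 0.05 for Fstl1 between the Dox groups (-0.38, adjusted p = 1.00) and for Fst in ASAH+ mice with against without Dox (-0.98, adjusted p = 0.507), with list medians of -0.05, 0.01 and 0.02. Tmprss6, the protease that lowers hepcidin by cleaving Hjv and the most abundant of the list in CPM, was at 0.02, 0.12 and 0.10.

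Id1, an inhibitor of DNA binding and a direct BMP target (chromosome 2, 152736251 to 152737410), stood at 1.96, 1.73, 1.47 and 5.54 CPM in ASAH- Etoh-Dox mice, 1.27, 2.88, 0.975, 2.93 and 2.82 CPM in ASAH+ Etoh-Dox mice and 4.28, 3.29, 5.05 and 2.66 CPM in ASAH+ Etoh mice. ASAH- Etoh-Dox mouse 4 had the highest Id1 of all, with the other 3 of its group under 2 CPM, and the ASAH+ Etoh-Dox mice split into 3 near 3 CPM and 2 lower. In ASAH+ mice with against without Dox, the log2 fold change of Id1 was -0.83 (SE 0.425, adjusted p = 0.704), with 3 of 20 pairs of mice the other way. It was -0.51 (SE 0.447, from -1.15 to -0.31 with 1 mouse left out) in ASAH- Etoh-Dox against ASAH+ Etoh mice. Between the Dox groups Id1 was at -0.32 (SE 0.428, from -0.52 to 0.33 with 1 mouse left out), and at 0.33 without ASAH- Etoh-Dox mouse 4.

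Id2, which restrains bHLH factors in many cell types (chromosome 12, 25093799 to 25097140), was chosen by its lower counts with Dox, so its values against ASAH+ Etoh mice are given as a description, with no test result. It stood at 51.7, 59.7, 62.5 and 64.6 CPM in ASAH- Etoh-Dox mice, 58.3, 81.8, 51.2, 71.7 and 82.01 CPM in ASAH+ Etoh-Dox mice and 164, 94.1, 105 and 123 CPM in ASAH+ Etoh mice. The highest mouse with Dox had 82.01 CPM and the lowest without it 94.1 CPM, so the groups did not overlap. No overlap with the first group lower was found for 1.49% of all genes in ASAH+ mice with against without Dox and for 2.4% in ASAH- Etoh-Dox against ASAH+ Etoh mice, and Id2 was the 1 member among them in each. The fitted log2 fold changes of Id2 were -0.82 (SE 0.168) and -1.03 (SE 0.180) in these comparisons, on which it was selected. Between the Dox groups, for which it was not chosen, Id2 was at 0.21 (SE 0.170, adjusted p = 1.00), with the ASAH+ Etoh-Dox mice spread over a wider range that held all 4 ASAH- Etoh-Dox mice. The member nearest to Id2 in separation was Id3, with 1 of 20 pairs the other way in ASAH+ mice.

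Id3, a BMP target like Id1 (chromosome 4, 136143497 to 136145755), stood at 15.7, 12.1, 16.4 and 17.4 CPM in ASAH- Etoh-Dox mice, 10.5, 15.6, 6.14, 14.6 and 12.96 CPM in ASAH+ Etoh-Dox mice and 23.7, 15.05, 20.03 and 18.7 CPM in ASAH+ Etoh mice. The 3 highest values of Id3 were of ASAH+ Etoh mice, and the lowest, far under the rest, was of ASAH+ Etoh-Dox mouse 3. In ASAH+ mice with against without Dox, Id3 was at -0.70 (SE 0.222), with an adjusted p of 0.534 in edgeR's quasi-likelihood test, adjusted after Benjamini and Hochberg. It was at -0.33 (SE 0.235, from -0.44 to -0.22 with 1 mouse left out) in ASAH- Etoh-Dox against ASAH+ Etoh mice and at -0.36 (SE 0.223, from -0.48 to -0.19 with 1 mouse left out) between the Dox groups.

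Id4, another of these inhibitors (chromosome 13, 48261228 to 48266026), stood at 2.01, 0.770, 1.55 and 0.536 CPM in ASAH- Etoh-Dox mice, 0.497, 0.540, 0.759, 1.48 and 0.694 CPM in ASAH+ Etoh-Dox mice and 2.35, 1.42, 1.90 and 1.16 CPM in ASAH+ Etoh mice. Of the ASAH+ Etoh-Dox mice, 4 were under 0.8 CPM, below every ASAH+ Etoh mouse, and mouse 4 was among the latter. In ASAH+ mice with against without Dox, Id4 was at -1.12 (SE 0.406), with an adjusted p of 0.568 in edgeR's quasi-likelihood test, adjusted after Benjamini and Hochberg. It was at -0.51 (SE 0.423, from -0.87 to -0.25 with 1 mouse left out) in ASAH- Etoh-Dox against ASAH+ Etoh mice and at -0.61 (SE 0.412, from -0.96 to -0.25 with 1 mouse left out) between the Dox groups. With the Dbp to Arntl covariate, Id4 was at -0.79 in ASAH- Etoh-Dox against ASAH+ Etoh mice.

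Id proteins bind the bHLH factors Tcf3, Tcf4 and Tcf12, of which none passed the threshold (list medians -0.04, 0.08 and 0.01). Tcf3 was at 0.50 (SE 0.192, adjusted p = 0.603) in ASAH+ mice with against without Dox, at 0.61 (SE 0.201, adjusted p = 0.392) in ASAH- Etoh-Dox against ASAH+ Etoh mice and at -0.12 between the Dox groups. Tcf12, the most abundant of the 3 in CPM, was at -0.04, -0.12 and -0.08.

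Atoh8, a bHLH factor that BMP signalling induces and that binds the hepcidin promoter (chromosome 6, 72206177 to 72235577), stood at 12, 3.50, 6.56 and 12.9 CPM in ASAH- Etoh-Dox mice, 6.99, 9.29, 6.39, 9.18 and 12.9 CPM in ASAH+ Etoh-Dox mice and 8.93, 12.6, 14.7 and 6.93 CPM in ASAH+ Etoh mice. Each group of Atoh8 values had a mouse above 12 CPM and a mouse under 7 CPM, so the groups overlapped throughout. The log2 fold change of Atoh8 was -0.28 (SE 0.349, from -0.45 to -0.10 with 1 mouse left out) in ASAH+ mice with against without Dox, -0.31 (SE 0.370, from -0.56 to -0.04 with 1 mouse left out) in ASAH- Etoh-Dox against ASAH+ Etoh mice and 0.03 (SE 0.351, from -0.23 to 0.29 with 1 mouse left out) between the Dox groups, where the value was -0.23 without ASAH- Etoh-Dox mouse 2, -0.09 without mouse 3 of that group, -0.13 without ASAH+ Etoh-Dox mouse 5 and 0.15 in limma-voom. Other target genes of BMP and TGF-beta numbered 14, of which Hey2, Msx1, Msx2 and Dlx3 had too few counts and none of the 10 others passed the threshold (list medians -0.23, -0.07 and 0.14). Tgfbi, the most abundant of them in CPM, was the one with an unadjusted p under 0.05, at -0.31 (SE 0.119, adjusted p = 1.00) between the Dox groups and at 0.50 (SE 0.126, adjusted p = 0.389) in ASAH- Etoh-Dox against ASAH+ Etoh mice, where the members were below 0. Vim was at -0.40, -0.17 and 0.24.

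Hamp, which encodes the hepcidin that acts on iron export, stood at 134, 4.24, 1.35 and 445 CPM in ASAH- Etoh-Dox mice, 7.90, 344, 20.3, 88.4 and 18.98 CPM in ASAH+ Etoh-Dox mice and 279.7, 370.5, 532 and 35.4 CPM in ASAH+ Etoh mice. Raw counts of Hamp ran from 33 to 12442, and its CPM differed 396-fold between the lowest and the highest mouse, ASAH- Etoh-Dox mouse 3 and ASAH+ Etoh mouse 3. Among ASAH+ Etoh mice, 3 were above 279 CPM of Hamp and 1 was at 35.4, while each Dox group also held a mouse above 340 CPM. The log2 fold change of Hamp was -1.67 (SE 1.44, from -3.17 to -1.27 with 1 mouse left out) in ASAH+ mice with against without Dox and 3 of 20 pairs of mice went the other way. Its adjusted p was 0.8295 there in edgeR's quasi-likelihood test, adjusted after Benjamini and Hochberg. In ASAH- Etoh-Dox against ASAH+ Etoh mice it was -1.06 (SE 1.52, from -2.72 to -0.65 with 1 mouse left out). Between the Dox groups it was -0.61 (SE 1.42, from -2.11 to 1.05 with 1 mouse left out), a sign that limma-voom (0.68) and the fit without ASAH- Etoh-Dox mouse 4 (1.05) turned. In ASAH- Etoh-Dox against ASAH+ Etoh mice, Hamp was at -3.10 in limma-voom and at -0.68 with the Dbp to Arntl covariate.

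Hamp2, the second hepcidin gene of the mouse, stood at 395, 77.2, 39.1 and 282 CPM in ASAH- Etoh-Dox mice, 92.95, 432, 134, 314 and 204 CPM in ASAH+ Etoh-Dox mice and 277, 213, 365 and 286 CPM in ASAH+ Etoh mice. The ASAH+ Etoh mice lay close together, inside the 11.03-fold range that the Dox groups covered. The log2 fold change of Hamp2 was -0.28 (SE 0.610, from -0.62 to -0.08 with 1 mouse left out) in ASAH+ mice with against without Dox, -0.52 (SE 0.646, from -1.11 to -0.18 with 1 mouse left out) in ASAH- Etoh-Dox against ASAH+ Etoh mice and 0.25 (SE 0.614, from -0.10 to 0.82 with 1 mouse left out) between the Dox groups. The last was -0.02 without ASAH- Etoh-Dox mouse 2, -0.10 without mouse 3 of that group and -0.09 without ASAH+ Etoh-Dox mouse 2. In limma-voom the 3 values of Hamp2 were -0.46, -1.05 and 0.59.

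Hamp and Hamp2 share sequence, so reads can be assigned to either. Of the 31-base words in their transcripts, 128 occur in both, which is 33.7% of the 380 words of Hamp and 23.1% of the 553 of Hamp2. Hamp made up 3.32% to 63.5% of the counts of both, and exceeded Hamp2 in 4 mice. The sum of Hamp and Hamp2, which does not depend on how shared reads were assigned between them, ran from 40.5 to 898 CPM, or 22.2-fold. Fitted as 1 gene, the sum had a log2 fold change of -0.83 (SE 0.791, adjusted p = 0.849) in ASAH+ mice with against without Dox, -0.78 (SE 0.842, adjusted p = 0.830) in ASAH- Etoh-Dox against ASAH+ Etoh mice and -0.06 (SE 0.794) between the Dox groups.

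Members were compared across the 13 mice in 10 pairs on log2 CPM, with Pearson r, Spearman rho, permutation p from 100000 resamples and Benjamini-Hochberg adjustment over the 10 pairs. The 10 are part of 45 possible pairs and were, like the members, chosen with earlier results known. The 9 pairs without Id2 all passed an adjusted p of 0.1, also by rho and on group-centred values. For Hamp with Hamp2, r was 0.884 (permutation p = 0.00007, adjusted p = 0.0007) and rho 0.742 (p = 0.00511, adjusted p = 0.00852), with an r of 0.744 without the 2 farthest mice and of 0.879 on group-centred values. For Hamp with Smad7, r was 0.8288 (permutation p = 0.00061, adjusted p = 0.00152) and rho 0.868 (p = 0.00019, adjusted p = 0.00095), with an r of 0.833 without the 2 farthest mice and of 0.796 on group-centred values. For Hamp with Id1, r was 0.783 (permutation p = 0.00162, adjusted p = 0.0027) and rho 0.841 (p = 0.00065, adjusted p = 0.00217), with an r of 0.790 without the 2 farthest mice and of 0.747 on group-centred values. For Hamp with Atoh8, r was 0.736 (permutation p = 0.00379, adjusted p = 0.00541) and rho 0.764 (p = 0.00365, adjusted p = 0.0073), with an r of 0.634 without the 2 farthest mice and of 0.711 on group-centred values. For Hamp with Bmp6, r was 0.689 (permutation p = 0.0086, adjusted p = 0.0107) and rho 0.709 (p = 0.00834, adjusted p = 0.0119), with an r of 0.653 without the 2 farthest mice and of 0.656 on group-centred values. The mice farthest from the median of Hamp were ASAH- Etoh-Dox mice 2 and 3. Part of the relation of Hamp with Hamp2 can come from shared reads, which was not tested.

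Id1 made the other 5 pairs, tested in the same way by permutation. For Id1 with Smad7, r was 0.878 (permutation p = 0.00015, adjusted p = 0.0007) and rho 0.901 (p = 0.00005, adjusted p = 0.0005), with an r of 0.831 without the 2 farthest mice and of 0.831 on group-centred values. For Id1 with Bmp6, r was 0.852 (permutation p = 0.00021, adjusted p = 0.0007) and rho 0.780 (p = 0.00254, adjusted p = 0.00635), with an r of 0.719 without the 2 farthest mice and of 0.797 on group-centred values. For Id1 with Id3, r was 0.776 (permutation p = 0.00094, adjusted p = 0.00188) and rho 0.654 (p = 0.0182, adjusted p = 0.0202), with an r of 0.558 without the 2 farthest mice and of 0.706 on group-centred values. For Id1 with Id2, the pooled r of 0.646 (0.521 without the 2 farthest mice) and rho of 0.692 take in the group difference for which Id2 was chosen, so they are a description with no test result. On group-centred values that r was 0.537 (permutation, adjusted p = 0.0657 over the 10 pairs and 0.133 over all 45). For Id1 with Smad6, r was 0.519 (permutation p = 0.067, adjusted p = 0.067) and rho 0.5 (p = 0.0845, adjusted p = 0.0845), with an r of 0.377 without the 2 farthest mice and of 0.498 on group-centred values. That last pair no longer passed without ASAH+ Etoh-Dox mouse 3 (r = 0.365, adjusted p = 0.248) or without ASAH+ Etoh mouse 3 (r = 0.371, adjusted p = 0.235). The mice farthest from the median of Id1 were ASAH+ Etoh-Dox mice 1 and 3.

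After these results had been seen, all pairs of members without Id2 were tested, with the permutation p adjusted over these 36. Of the 9 such pairs above, 8 passed an adjusted p of 0.1, both pooled and on group-centred values, and Id1 with Smad6 did not (0.115 and 0.158). Of the 27 other pairs, 11 passed, and 9 on group-centred values. The median r was 0.783 over the 9 pairs and 0.466 over the 27, which ran from 0.0581 (Smad6 with Hamp2) to 0.826 (Id3 with Bmp6). Hamp with Id3 (r = 0.466), Smad6 (0.300) and Id4 (0.229) did not pass. Of the 14316 other genes, 1.59% had an r with Hamp at least as high as Bmp6, the lowest of the 5 partners of Hamp above, and 10.5% at least as high as Id3. For Id1 it was 5.27% at least as high as Smad6, the lowest of its 5, and 0.182% at least as high as Id3.

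**Figure D3:**
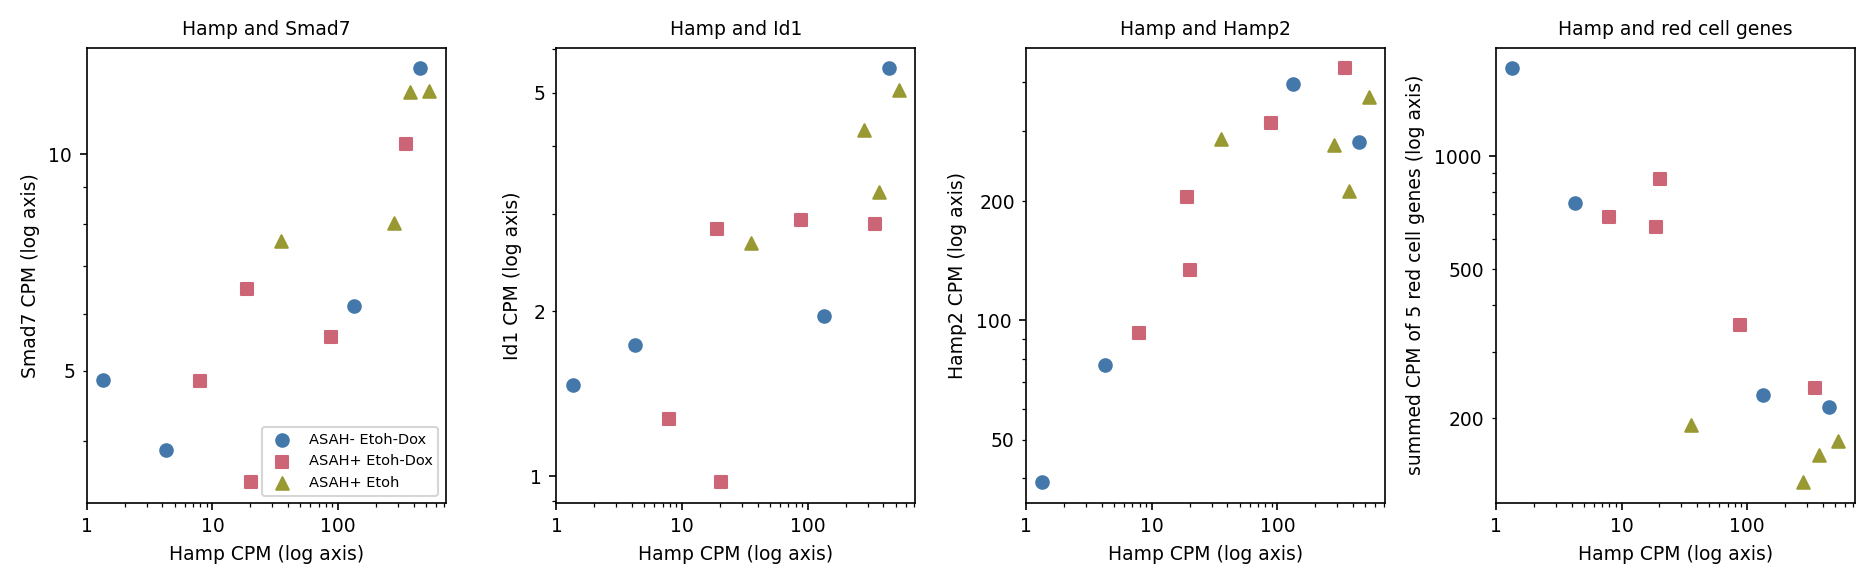
Hamp against Smad7, Id1, Hamp2 and the summed red cell genes in the 13 mice, in CPM on log axes, by group. Hamp lies higher where Smad7, Id1 and Hamp2 are higher, and lower where the red cell genes sum higher (r = -0.907).

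Summed red cell genes were set against Hamp after the values of both had been seen, together with 5 sums of cell type markers. Over these 6 relations, with permutation p from 100000 resamples and Benjamini-Hochberg adjustment over 6, Hamp and the red cell sum had r = -0.907 (p = 0.00005, adjusted p = 0.0003) and rho = -0.813 (p = 0.00108, adjusted p = 0.00648). The r was -0.834 without the 2 mice farthest for Hamp and -0.916 on group-centred values. As both sets of values had been seen first, the p of this relation is a description and no independent test. The red cell genes summed to 231, 751, 1712 and 215 CPM in ASAH- Etoh-Dox mice, 689, 240.4, 870.1, 355 and 646 CPM in ASAH+ Etoh-Dox mice and 135, 159.7, 175 and 192 CPM in ASAH+ Etoh mice. ASAH- Etoh-Dox mouse 3 had the highest red cell sum and the lowest Hamp of all. For Hamp with the other sums, r was -0.357 for Kupffer cells, 0.211 for cholangiocytes, -0.200 for stellate cells, -0.134 for hepatocytes and -0.00617 for endothelial cells, and the lowest adjusted p was 0.694. Without the same 2 mice these were 0.0683 for Kupffer cells, 0.203 for cholangiocytes, 0.303 for stellate cells, 0.260 for hepatocytes and 0.464 for endothelial cells, so 4 of the 5 turned sign. The part of red cells in the values of Hamp was not tested.

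Red cell genes read beside Hamp numbered 5, with Hbb-bs the most abundant and none at 0. All 5 had a log2 fold change above 0 with an unadjusted p under 0.05 in both comparisons against ASAH+ Etoh mice (medians 1.85 and 2.16) and below 0 without one between the Dox groups (median -0.36). Hbb-bs was at 1.64 (SE 0.580, adjusted p = 0.568) and 2.03 (SE 0.607, adjusted p = 0.389) in those comparisons, and Hba-a2 at 1.89 (SE 0.623, adjusted p = 0.550) and 2.30 (SE 0.652, adjusted p = 0.389). None passed the threshold in edgeR or limma-voom, whereas DESeq2 on all 13 mice called 3 of them (Hba-a1, Hba-a2 and Hbb-bs) in ASAH+ mice with against without Dox and also Hbb-bt in ASAH- Etoh-Dox against ASAH+ Etoh mice.

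Kupffer cells and stellate cells lie next to the hepatocytes that make Hamp, and their markers were read in the same way. Kupffer cell markers, 10 with Cd5l the most abundant and none at 0, summed to 472, 476, 958 and 585 CPM in ASAH- Etoh-Dox mice, 659, 660.4, 351, 536 and 359.5 CPM in ASAH+ Etoh-Dox mice and 449.9, 349, 409 and 417 CPM in ASAH+ Etoh mice. Of them, 10 were below 0 between the Dox groups, 9 above 0 in ASAH+ mice with against without Dox, and 10 above 0 in ASAH- Etoh-Dox against ASAH+ Etoh mice, where 7 had an unadjusted p under 0.05 (medians -0.30, 0.42 and 0.63). C1qa was at 0.74 and C1qc at 0.71 in the last of these. Stellate cell markers, 10 with Dcn the most abundant and none at 0, summed to 308, 304, 379 and 354 CPM in ASAH- Etoh-Dox mice, 288, 313, 293, 289.6 and 249 CPM in ASAH+ Etoh-Dox mice and 316, 262, 279 and 321 CPM in ASAH+ Etoh mice. Of them, 10 were below 0 between the Dox groups, 2 with an unadjusted p under 0.05 (Reln and Colec11), and 10 above 0 in ASAH- Etoh-Dox against ASAH+ Etoh mice, 3 with an unadjusted p under 0.05 (medians -0.21, 0.09 and 0.29). The part of either cell type in the values of Hamp was not tested.

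Hepatocyte markers, 8 with Alb the most abundant and none at 0, summed to 124096, 118450, 139644 and 121572 CPM in ASAH- Etoh-Dox mice, 87711, 109935, 125206, 113510 and 117854 CPM in ASAH+ Etoh-Dox mice and 100675, 120796, 119652 and 128879 CPM in ASAH+ Etoh mice. The range of these sums was far narrower than that of Hamp. Unadjusted p was under 0.05 for Apoa1 between the Dox groups (-0.28) and in ASAH- Etoh-Dox against ASAH+ Etoh mice (0.54), and for Cps1 (-0.70) and Ass1 (-0.43) in ASAH+ mice with against without Dox (list medians -0.16, -0.07 and -0.03). Cholangiocyte markers, 7 with Spp1 the most abundant and 6 tested, summed to 80.5, 46.7, 38.2 and 36.8 CPM in ASAH- Etoh-Dox mice, 35.6, 47.9, 44.7, 41.5 and 32.1 CPM in ASAH+ Etoh-Dox mice and 46.1, 39.2, 43.3 and 52.8 CPM in ASAH+ Etoh mice. None of the 6 had an unadjusted p under 0.05 (medians -0.34, -0.11 and 0.25), and Cftr was at 0 in 1 mouse. The part of these cells in the values of the members was not tested.

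Hamp also answers to interleukin-6 through STAT3, and 9 of 10 genes of that arm were tested, Il6 itself having too few counts. None passed the threshold, and unadjusted p was under 0.05 for Jak1 (-0.17) and Stat3 (-0.38) in ASAH+ mice with against without Dox and for Creb3l3 (0.23), the most abundant in CPM, in ASAH- Etoh-Dox against ASAH+ Etoh mice (list medians -0.05, -0.17 and -0.12). Iron handling, which Hamp and Bmp6 serve, was read in 20 genes with Trf the most abundant in CPM, of which none passed the threshold (list medians -0.03, -0.08 and -0.09). Unadjusted p was under 0.05 for Heph between the Dox groups (-0.51), for Heph (-0.77 (SE 0.235, adjusted p = 0.512)), Slc39a14 (-0.32 (SE 0.109, adjusted p = 0.550)) and Hp (-0.39) in ASAH+ mice with against without Dox, and for Ireb2 (-0.30) in ASAH- Etoh-Dox against ASAH+ Etoh mice. Slc40a1, the iron exporter that hepcidin binds, was at 0.07, -0.07 and -0.14, and Tfrc, the transferrin receptor, at -0.20, 0.18 and 0.38.

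Of the 158 listed genes other than the members, edgeR and limma-voom called 0 in each comparison, and DESeq2 called 0 between the Dox groups. DESeq2 on all 13 mice called 5 in ASAH+ mice with against without Dox (Cps1, Slc39a14 and 3 red cell genes) and 6 in ASAH- Etoh-Dox against ASAH+ Etoh mice (Apoa1, Tgfbi and 4 red cell genes). On the groups compared alone it called 10 in the first of these, with Fst, Cps1, the endothelial markers Fcgr2b, Oit3 and Clec4g and 5 red cell genes, and 5 in the other, with Apoa1, Tgfbi, C1qa, Hba-a2 and Hbb-bt. The cause of this difference between tools was not tested.

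Among the 14316 other genes tested, the closest to Hamp by Pearson r over the 13 mice were Fcho2 (0.885), Hamp2 (0.884), Synj2bp (0.883), Bivm (0.863) and Yes1 (0.860), given without a p. Smad7 ranked 16th for Hamp, Id1 49th, Atoh8 109th and Bmp6 227th. Id3 ranked 1499th for Hamp, Id2 1600th, Smad6 3135th and Id4 3974th. The closest to Id1 were Me3 (0.930), Gm5834 (0.891), Smad7 (0.878), Ppp1r16b (0.877) and Gm12978 (0.872). The closest to Id2, with the group difference for which it was chosen taken in, were Cyp3a25 (0.937), Ash1l (0.871), Zfp418 (0.842), Itch (0.837) and Arhgap42 (0.835).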

How the data were processed

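The table holds estimated counts per gene, which the authors made with salmon against GENCODE M19 on GRCm38.p6, summed to genes with tximport and deposited as whole numbers. All 13 columns were mapped to samples by description. Of 53392 genes, 28557 had a count in any mouse and 53355 were named from GENCODE M21, which also gave positions and exon lengths for CPM per kilobase.

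Counts were fitted in edgeR 4.0.16 (R 4.3.3) with TMM scaling, edgeR's own filter by group, which kept 14317 genes, a robust quasi-likelihood test on 3 group means from 13 mice, and library totals over all genes. A gene was called at an adjusted p under 0.1 after Benjamini and Hochberg. Levels are TMM-scaled CPM, and correlations used log2 CPM with a prior count of 2 and 100000 permutations, adjusted over the 10 pairs (over 6 relations for the sums of marker and red cell genes). Alternatives were DESeq2 1.42.0 and limma-voom (limma 3.58.1), DESeq2 size factors, no filter, 10 counts in every mouse, a threshold of 0.05, the 2 groups alone, Asah1 left out of the totals, no robust dispersion, a replicate block, the Dbp to Arntl ratio as a covariate, Hamp and Hamp2 summed, a prior count of 0.5 and each mouse left out. Library totals over the filtered genes, all 45 pairs of members and the pairs without Id2 were alternatives added after seeing the data. The code was tested on simulated data with 200 changed genes. Set against counting error alone, pairs of mice within a group had a chi-square over degrees of freedom of 18.3 to 103 over 22 pairs. Separate mice always differ by more than counting error, so this describes the size of the spread and tests nothing.

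The members and the gene lists (BMP ligands, receptors, Smads, antagonists, other targets, bHLH partners, the IL-6 arm, iron handling, clock genes, red cell genes and markers of 5 cell types) were chosen with earlier results of these data known. Besides the members, the text names for each list the 2 tested genes with the lowest unadjusted p over the 3 comparisons, a fixed set of pathway and clock genes (Bmp2, Gdf2, Hjv, Tfr2, Hfe, Tmprss6, Smad1, Smad5, Smad4, Slc40a1, Tfrc, Dbp and Arntl), the most abundant gene of each list, the 5 genes with the highest r to Id1, Id2 and Hamp, and genes behind small counts, which were named after their values were seen. Promoter windows came from RefSeq and were aligned with Biopython 1.88 on Python 3.11.15, and Id1 and Smad7 had no window in the table used. No group without alcohol was in the table.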

Additional observations from a re-analysis of the deposited data

Results flagged for a closer look

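Each group of 4 or 5 mice was searched for a mouse far from the others, by Dixon's ratio of the gap to the nearest mouse over the whole range. Of 48 groups tested, 3 were above the 95% critical value, and chance alone flags about 1 in 20 groups of normally distributed values. The ratio was taken on CPM and not on log2 CPM, and whether CPM is so distributed was not tested. Id1 stood at 5.54 CPM in ASAH- Etoh-Dox mouse 4, with the nearest mouse of the group at 1.96 CPM. Id4 stood at 1.48 CPM in ASAH+ Etoh-Dox mouse 4, with the nearest at 0.759 CPM. Hamp stood at 344 CPM in ASAH+ Etoh-Dox mouse 2, with the nearest at 88.4 CPM. All 3 mice were kept, and the cause was not tested.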

How the results depend on the processing

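Over all settings, 13 of 753 log2 fold changes of members turned sign, 2 with another setting and 11 with a mouse left out, and the cause was not tested. Members called stayed at 0 in every setting and comparison, with Id2 left out where it was chosen. Between ASAH+ and ASAH- Etoh-Dox mice, Hamp was at 0.68 in limma-voom and Atoh8 at -0.10 with the replicate block. With 1 mouse left out, the ranges there were -0.52 to 0.33 for Id1, -0.47 to 0.31 for Smad7, -2.11 to 1.05 for Hamp, -0.10 to 0.82 for Hamp2 and -0.23 to 0.29 for Atoh8. The first 3 turned without ASAH- Etoh-Dox mouse 4, Hamp2 without ASAH- Etoh-Dox mouse 2 or 3 or ASAH+ Etoh-Dox mouse 2, and Atoh8 without ASAH- Etoh-Dox mouse 2 or 3 or ASAH+ Etoh-Dox mouse 5. Smad6 ranged from -0.55 to 0.00586 in ASAH+ mice with against without Dox and from -0.40 to 0.16 in ASAH- Etoh-Dox against ASAH+ Etoh mice, turning in both without ASAH+ Etoh mouse 3.

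Between the Dox groups, the 2 genes called became 12 in DESeq2 on all 13 mice, 11 in DESeq2 and 1 in edgeR on the 2 groups alone, 1 with the replicate block, and 1 to 2 with a mouse left out. In ASAH+ mice with against without Dox, the 2 became 98 and 114 in DESeq2 (all mice, groups alone), 3 in edgeR on the groups alone, 4 without a filter, and 2 to 8 with a mouse left out (8 without ASAH+ Etoh mouse 2). In ASAH- Etoh-Dox against ASAH+ Etoh mice, the 2 became 149 and 168 in DESeq2, 1 with the Dbp to Arntl covariate, and 0 to 2 with a mouse left out (2 only without ASAH- Etoh-Dox mouse 4). They became 0 in edgeR at an adjusted p under 0.05, on the groups alone and with the replicate block, where 1314, 1257 and 1027 genes had an unadjusted p under 0.05, and limma-voom called 2. Totals over the filtered genes, chosen after seeing the data, left the number of genes called at 2 in each comparison. Same-numbered mice did not deviate together (12 pairs, r from -0.265 to 0.190, 2 over 0.1), so the block pairs by number only. With the block, Id2 was at 0.13 and Hamp2 at 0.49 between the Dox groups, Hamp at -2.55 and Atoh8 at -0.46 in ASAH+ mice with against without Dox, and Hamp at -1.78 and Hamp2 at -0.83 in ASAH- Etoh-Dox against ASAH+ Etoh mice. Between the Dox groups, the 409 genes with an unadjusted p under 0.05 became 215 with the block and 795 without a filter. Of 160 correlations 2 were weaker, Id1 with Smad6 without ASAH+ Etoh-Dox mouse 3 or ASAH+ Etoh mouse 3. Of the 9 pairs without Id2, counted so after seeing the data, 9 passed, 8 to 9 with a mouse left out, and 8 when adjusted over all 45 pairs or over the 36 without Id2. Depth limits Id4, Bmp6 and Id1 most.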

Other observations

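Clock genes numbered 14, all tested, and none had an unadjusted p under 0.05 in any comparison (medians 0.13, -0.04 and -0.19 for ASAH+ Etoh-Dox against ASAH- Etoh-Dox, ASAH+ Etoh-Dox against ASAH+ Etoh and ASAH- Etoh-Dox against ASAH+ Etoh mice). Tef was the most abundant in CPM. Dbp stood at 7.98, 111, 33.2 and 82.1 CPM in ASAH- Etoh-Dox mice, 102, 99.7, 4.95, 19.2 and 57.8 CPM in ASAH+ Etoh-Dox mice and 78.1, 89.2, 82.3 and 26.7 CPM in ASAH+ Etoh mice. Arntl stood at 15.6, 1.16, 9.42 and 1.11 CPM in ASAH- Etoh-Dox mice, 0.939, 0.828, 15.6, 17.3 and 8.80 CPM in ASAH+ Etoh-Dox mice and 3.50, 1.26, 2.41 and 8.78 CPM in ASAH+ Etoh mice. Npas2 had log2 fold changes of -0.13, 2.55 (SE 1.43) and 2.67 (SE 1.47), and Cry1 of 0.37, 0.20 and -0.17. Oit3, an endothelial marker, was at -0.62 in ASAH+ mice with against without Dox. Epcam, a cholangiocyte marker, was at -0.44, -0.15 and 0.29.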
